A study of Mus musculus with 9 samples.

Results

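The T cell receptor (TCR) complex and its coreceptors were followed through 10 genes in orthotopic Hepa1-6 tumors, namely Cd3d, Cd3e, Cd3g, Cd247, Cd4, Cd8a, Cd8b1, Lck, Zap70 and Lat. They were taken from the tumors' gene tables by symbol, and all 10 were found among 48254 named loci. Hepa1-6 is a mouse hepatoma line, and pieces of subcutaneous Hepa1-6 tumors had been implanted in the left liver lobe of male C57BL/6 mice aged 6 to 8 weeks, which keep their own immune system. Mice received intraperitoneal PBS, or 5 mg per kg of the PD-1 antibody RMP1-14, on 5 occasions, every 4 days from day 10 to day 26, and tumors were taken on day 27. Bulk RNA sequencing covered 3 tumors given PBS, the 3 largest antibody-treated tumors, called nonresponsive, and the 3 smallest, called responsive, with 1 tumor per mouse. The nonresponsive and responsive groups were therefore set by tumor size after treatment, both carried the same antibody, and tumors of intermediate size were left out.

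On a T cell, the clonotypic receptor chains bind peptide on MHC molecules but have short cytoplasmic tails, so signals pass through the CD3 gamma, delta and epsilon chains and the zeta chain encoded by Cd247. The coreceptors CD4 and CD8 bind MHC class II and class I and bring the kinase Lck to the receptor. Lck phosphorylates the CD3 and zeta tails, the kinase ZAP-70 docks there, and ZAP-70 phosphorylates the adaptor LAT, on which downstream signaling proteins assemble. PD-1, the target of the antibody, is an inhibitory receptor that dampens this proximal signal. In bulk tumor RNA, fewer T cells and less of these transcripts per T cell cannot be told apart.

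The CD3 genes lie side by side, and the promoters of these genes and of Cd8a are shown here because Cd3g and Cd3d start in opposite directions from the same short stretch, Cd3e stands close by, and Cd8a is the member whose level departed most from theirs. Each runs from 250 bases before to 50 bases after the RefSeq start, 5′ to 3′ on the gene's strand (GRCm38.p6). They are chr9:44980382-44980681 (minus strand) for Cd3g, chr9:44981536-44981835 (plus) for Cd3d, chr9:45009562-45009861 (minus) for Cd3e and chr6:71373177-71373476 (plus) for Cd8a. Capitals mark matches, on either strand, to the core letters bound by 5 families of transcription factors used in T cells (ETS, TCF and LEF, RUNX, GATA and E proteins) or to the TATA box.
Cd3g: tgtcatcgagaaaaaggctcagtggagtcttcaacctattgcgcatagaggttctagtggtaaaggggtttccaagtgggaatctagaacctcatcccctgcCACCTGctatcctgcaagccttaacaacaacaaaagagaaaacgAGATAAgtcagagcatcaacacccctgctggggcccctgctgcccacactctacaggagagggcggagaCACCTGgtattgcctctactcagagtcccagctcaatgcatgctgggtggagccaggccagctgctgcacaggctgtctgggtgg
Cd3d: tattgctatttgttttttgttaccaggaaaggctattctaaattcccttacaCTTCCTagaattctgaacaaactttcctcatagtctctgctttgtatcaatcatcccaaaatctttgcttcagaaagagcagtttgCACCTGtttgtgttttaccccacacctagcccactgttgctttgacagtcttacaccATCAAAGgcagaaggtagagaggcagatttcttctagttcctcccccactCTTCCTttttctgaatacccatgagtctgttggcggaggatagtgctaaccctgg
Cd3e: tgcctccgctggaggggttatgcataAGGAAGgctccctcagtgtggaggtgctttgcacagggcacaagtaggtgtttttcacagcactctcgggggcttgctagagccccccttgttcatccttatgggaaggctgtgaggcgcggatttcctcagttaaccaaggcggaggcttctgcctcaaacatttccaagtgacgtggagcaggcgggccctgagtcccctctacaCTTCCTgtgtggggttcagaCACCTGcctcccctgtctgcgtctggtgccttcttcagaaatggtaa
Cd8a: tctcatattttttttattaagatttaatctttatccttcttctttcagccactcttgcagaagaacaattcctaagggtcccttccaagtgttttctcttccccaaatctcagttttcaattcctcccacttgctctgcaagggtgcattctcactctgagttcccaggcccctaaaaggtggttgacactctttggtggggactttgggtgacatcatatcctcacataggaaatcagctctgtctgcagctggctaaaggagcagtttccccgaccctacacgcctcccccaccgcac
Of the members, 8 had a RefSeq promoter in the table used, with 11 promoters in all since Lck and Zap70 have several starts, and Cd4 and Cd8b1 had no entry. The E-box letters of E proteins, CACCTG, occurred in the promoters of 6 of these 8 genes (Cd247, Cd3d, Cd3e, Cd3g, Lck and Zap70), in 8 of the 11 promoters, against 20.2% of 32851 mouse promoters of the same length. The ETS core, AGGAAG, also occurred in 6 of the 8 genes (Cd247, Cd3d, Cd3e, Lat, Lck and Zap70), in 8 of the 11 promoters, against 35.4% of all promoters. The RUNX core, TGTGGT, was in promoters of Lat, Lck and Zap70, in 3 of the 11 promoters, against 16.8% of all promoters. The GATA core, AGATAA, was in that of Cd3g, against 11.2%. The TCF and LEF core, ATCAAAG, was in that of Cd3d, against 3.73%. The TATA box, TATAAA, was in no member's promoter, against 13.6%. No match overlapped another, and such matches describe the letters only.

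In the GENCODE M21 annotation of GRCm38, Cd3g occupies chr9:44969572-44980431, Cd3d chr9:44981786-44987339 and Cd3e chr9:44998740-45009627. Cd8b1 (chr6:71322788-71337494) and Cd8a (chr6:71373427-71379173) are also neighbors, while Cd4 lies elsewhere on the same chromosome (chr6:124864692-124888221). Every member had exactly 1 entry in each of the 9 tumors, and 6 of them (Cd3d, Cd3e, Cd3g, Cd4, Cd8b1 and Zap70) stood alone in it. Cd247 shared its entry with the processed transcript Gm16565, Cd8a with the long noncoding RNA Gm44174, which lies upstream on the same strand, Lck with the microRNA Mir8119 and Lat with Mir7058, so those 4 values are sums that cannot be split between the genes. Levels are in FPKM, a fragment count scaled by transcript length and by the mapped fragments of a tumor, as the authors deposited it, so that genes can be ordered by level.

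Tumors differed in ways the groups do not explain. PBS 1 had the lowest value of the 9 tumors for 9 of the 10 members, with a summed member FPKM of 50.3 against 100.1 to 198 elsewhere. Nonresponsive 1 and responsive 1 had Afp, the alpha-fetoprotein gene that Hepa1-6 cells express, at an FPKM of 0.32 and 0.65, while the other 7 tumors lay between 4.40 and 56.5. The read depth is not given by FPKM tables, although the steps between low values put the tumors' relative depth within 0.936 to 1.07 of that of PBS 1. That search covered only ratios near 1. Cufflinks' own 95% interval around a value had a median half-width of 45.6% for Cd3d and 40.1% for Cd4, and of 11.4 to 16.5% for the other 8 members. The interval of Cd3d reached 0 in PBS 1 and PBS 3, and that of Cd4 in PBS 1.

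**Figure D1:**
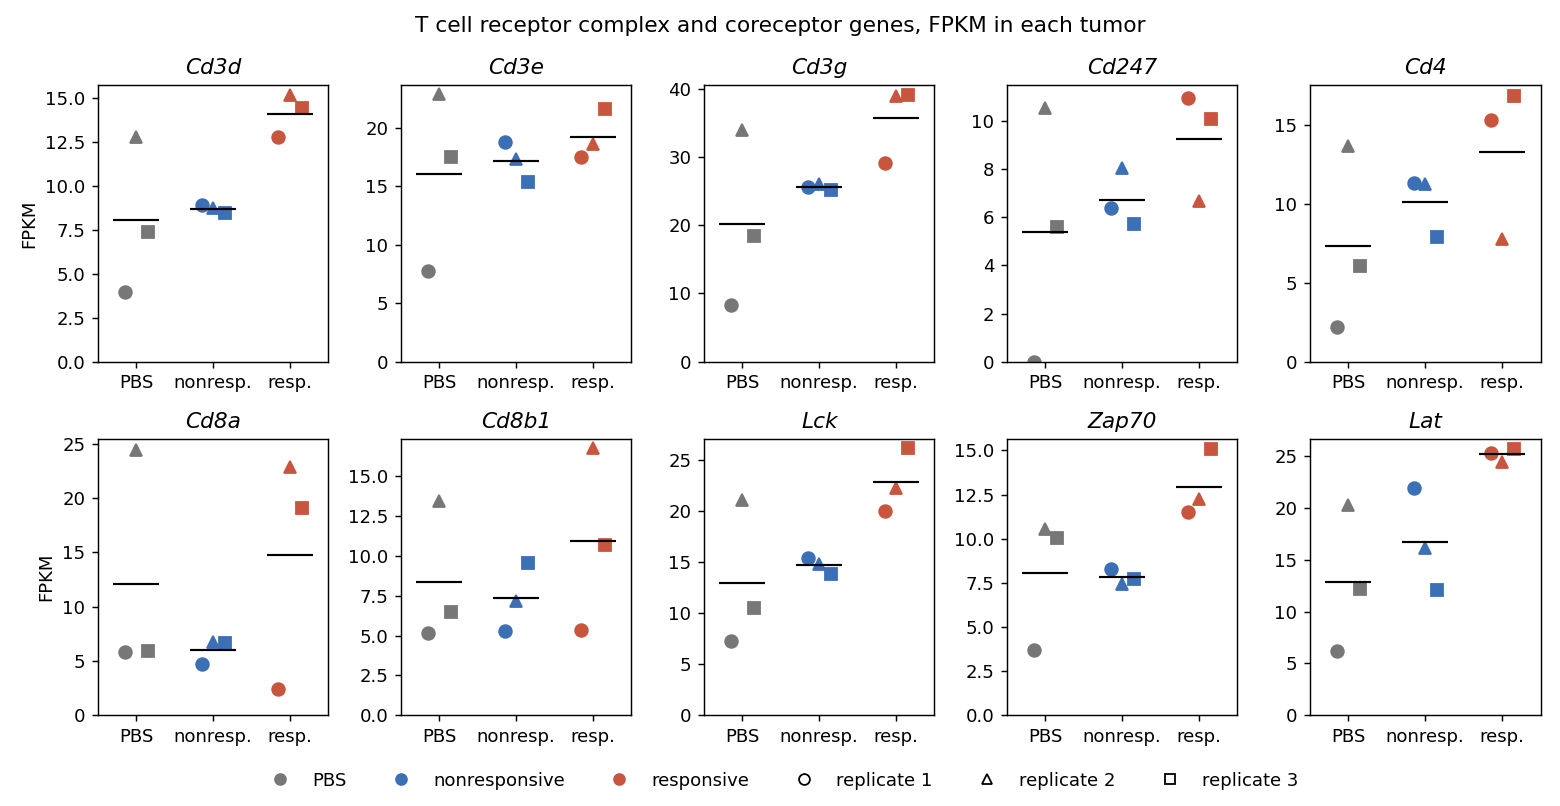
FPKM (vertical axes, from 0) of each member in each tumor; points are tumors, colored by group and shaped by replicate number, and bars are means of 3. Lat lay between 24.4 and 25.7 in the responsive tumors and Cd8a between 2.46 and 22.8, while PBS tumors were spread widely for every member.

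Averaged over the 9 tumors, Cd3g was the most abundant member (mean FPKM 27.2), followed by Lat (18.3), Cd3e (17.5) and Lck (16.8). Cd8a (10.96), Cd3d (10.3), Cd4 (10.2), Zap70 (9.62), Cd8b1 (8.87) and Cd247 (7.11) followed. From Lat on, neighbors in this order differed by less than the SD of either gene among the PBS tumors. The constant segments of the receptor itself were also present, as Trac, of the alpha chain, lay between 25.4 and 62.5 and the beta chain locus of Trbc1 and Trbc2 between 34.7 and 163 in all 9 tumors.

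Among the CD3 genes, Cd3d, the delta chain, had FPKM of 3.98, 12.8 and 7.37 in PBS tumors 1 to 3, of 8.88, 8.71 and 8.44 in nonresponsive tumors and of 12.8, 15.2 and 14.4 in responsive tumors. All 3 responsive tumors were above all 3 nonresponsive tumors, and PBS 2 was level with responsive 1. Cd3g, the gamma chain, had FPKM of 8.28, 34.0 and 18.4 with PBS, 25.6, 26.02 and 25.2 in nonresponsive tumors and 29.1, 38.9 and 39.0 in responsive tumors. Here too the responsive tumors were above every nonresponsive tumor, while PBS 2 lay within the responsive range.

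Cd3e, the epsilon chain shared by both CD3 dimers, had FPKM of 7.79, 22.9 and 17.5 with PBS, 18.8, 17.3 and 15.4 in nonresponsive tumors and 17.5, 18.6 and 21.6 in responsive tumors. The 3 groups overlapped, and the highest value belonged to PBS 2. Cd247, the zeta chain, was listed at 0 in PBS 1 and had FPKM of 10.5 and 5.58 in PBS 2 and 3, of 6.40, 8.05 and 5.73 in nonresponsive tumors and of 10.9, 6.69 and 10.1 in responsive tumors. The other CD3 genes were above 0 in PBS 1, so whether the 0 is a low level or a missing estimate cannot be told from the file.

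Within the antibody-treated groups, the coreceptors were spread more widely than the CD3 genes. Cd4 had FPKM of 2.22, 13.6 and 6.04 with PBS, 11.3, 11.2 and 7.87 in nonresponsive tumors and 15.3, 7.79 and 16.8 in responsive tumors. Responsive 2 was thus below all 3 nonresponsive tumors. Cd8a, the CD8 alpha chain, had FPKM of 5.81, 24.4 and 5.96 with PBS, 4.70, 6.77 and 6.64 in nonresponsive tumors and 2.46, 22.8 and 19.1 in responsive tumors. Responsive 1 had the lowest Cd8a of all 9 tumors, and PBS 2, responsive 2 and responsive 3 stood well above the rest. Cd8b1, the CD8 beta chain of conventional cytotoxic T cells, had FPKM of 5.18, 13.5 and 6.49 with PBS, 5.27, 7.17 and 9.56 in nonresponsive tumors and 5.34, 16.8 and 10.7 in responsive tumors. Its 3 highest values were in the same 3 tumors as those of Cd8a.

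Of the signaling members, Lck had FPKM of 7.23, 21.01 and 10.5 with PBS, 15.4, 14.8 and 13.8 in nonresponsive tumors and 20.0, 22.3 and 26.1 in responsive tumors. Zap70 had FPKM of 3.70, 10.5 and 10.02 with PBS, 8.31, 7.42 and 7.74 in nonresponsive tumors and 11.5, 12.2 and 15.1 in responsive tumors, where it was above every other tumor of the series. Lat had FPKM of 6.19, 20.3 and 12.2 with PBS, 21.9, 16.1 and 12.1 in nonresponsive tumors and 25.3, 24.4 and 25.7 in responsive tumors, again above every other tumor. Lck in responsive tumors was above every nonresponsive tumor but overlapped with PBS 2.

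The comparison of responsive with nonresponsive tumors asked which transcripts went with tumor size under the same antibody. Each of the 10 members had a higher mean in responsive tumors in the values as deposited, although Cd3e turned lower, with a log2 difference of -0.04, when tumors were scaled to the summed FPKM of named entries. Of 12716 loci tested, 41.8% were higher. The difference in log2(FPKM + 1), with its SE, was 0.65 ± 0.18 for Zap70, 0.64 ± 0.17 for Cd3d, 0.60 ± 0.18 for Lck and 0.60 ± 0.24 for Lat. Their limma p-values were 0.0114, 0.00829, 0.0153 and 0.0470. These 4 had an unadjusted p under 0.05, against 4.36% of loci on the higher side, and 5 members, Cd3g with them, did not overlap between the groups, against 5.69% of loci. None passed Benjamini-Hochberg adjustment over all loci (lowest adjusted p = 0.835 in limma, with 0.0629% of loci passing), and the exact permutation p of the 5 members was 0.1, the smallest that 3 against 3 tumors allow.

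Cd3g was higher by 0.45 ± 0.19 on this scale, Cd247 by 0.39 ± 0.25, Cd4 by 0.31 ± 0.33, Cd8b1 by 0.43 ± 0.42, Cd8a by 0.76 ± 0.74 and Cd3e by 0.15 ± 0.18, none with an unadjusted p under 0.05. The median over the 10 members was 0.52, and over all loci tested it was -0.067. In FPKM, the mean of Zap70 was 7.82 ± 0.452 (SD, n = 3) in nonresponsive and 12.96 ± 1.90 in responsive tumors, and that of Cd3d was 8.68 ± 0.220 and 14.1 ± 1.23. Scaling to the named sum moved the median of all loci to -0.24 and that of the members to 0.33, left 2 members with p under 0.05, and turned the loci called at that level from 555 higher and 199 lower into 289 and 573. In 1 fit of all 9 tumors, no member had a p under 0.05, against 3.45% of loci on the higher side. Without responsive 3 only Cd3d did, against 1.74%.

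**Figure D2:**
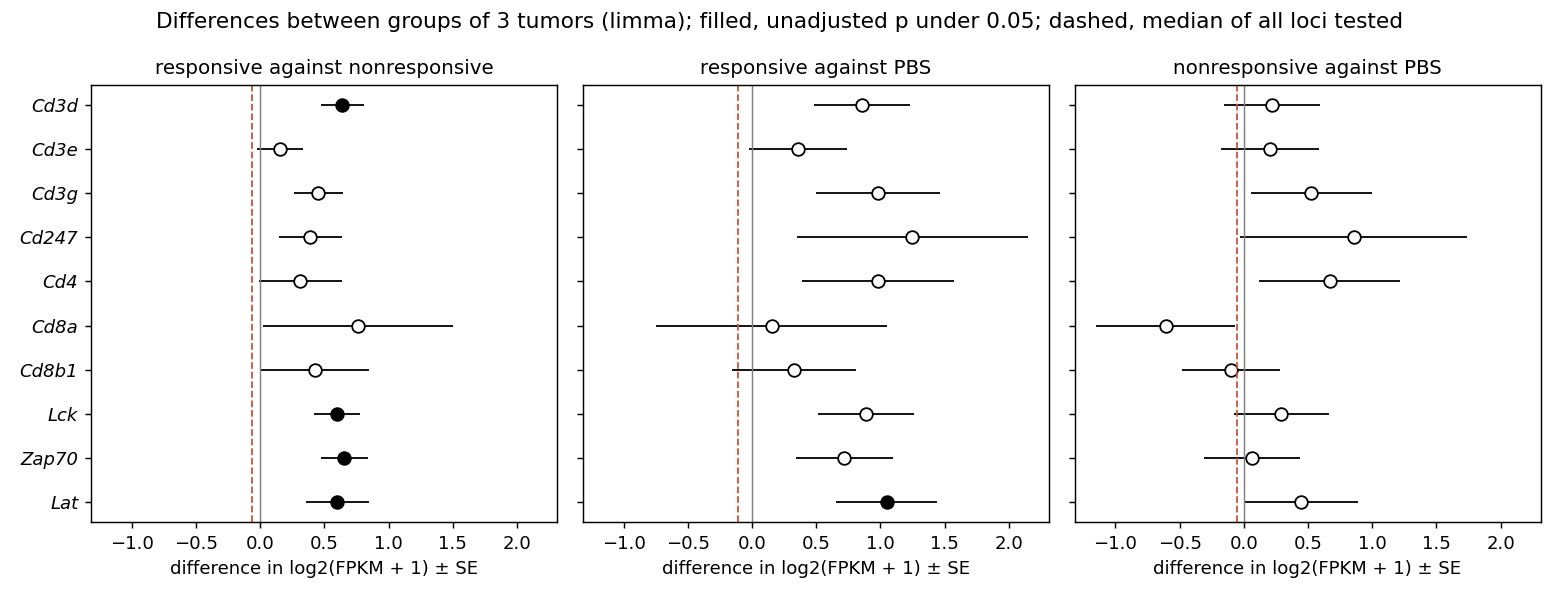
Difference in log2(FPKM + 1) between groups of 3 tumors (horizontal axis, points with SE) for each member in 3 comparisons; filled points have an unadjusted limma p under 0.05 and the dashed line is the median of all loci tested. All 10 points lie above 0 for responsive against nonresponsive tumors (Cd3e at -0.04 when scaled to the named sum) and against PBS tumors, with wider errors against PBS.

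Against PBS tumors, the question was how tumors that stayed small under antibody differed from untreated ones. All 10 members were higher on average in responsive tumors, by a median log2 difference of 0.87, against -0.11 for all loci and 41.6% of loci higher. Lat had the smallest p, with a difference of 1.05 ± 0.39 (limma p = 0.0370, exact permutation p = 0.1), and was the 1 member with p under 0.05, against 9.12% of 12715 loci. Lat and Zap70 (0.72 ± 0.38) did not overlap between these groups, against 11.8% of loci. No member passed adjustment (lowest adjusted p = 0.254 in limma, with 0.149% of loci passing), and the limma p-value of Lat was 0.0871 without responsive 3. Leaving out PBS 1 lowered the members' median to 0.36, and leaving out PBS 2 raised it to 1.25, with 5 members then at p under 0.05, as were 1247 of 12426 loci on the higher side. Scaling to the named sum moved the median of all loci to -0.24, left no member at p under 0.05, and turned the loci called at that level from 1159 higher and 1275 lower into 889 and 2272.

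The differences from PBS for Cd3g (0.98 ± 0.48), Cd4 (0.98 ± 0.59), Lck (0.89 ± 0.37) and Cd3d (0.86 ± 0.37) were larger than that of Zap70 but overlapped with PBS 2. That of Cd247 (1.25 ± 0.90) rested on the value listed at 0, and was 0.21 without PBS 1. Those of Cd3e (0.36 ± 0.38), Cd8b1 (0.33 ± 0.48) and Cd8a (0.15 ± 0.90) were within 1 SE of 0 and turned below 0 when some tumors were left out, with Cd8a at -0.35 without responsive 2.

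Nonresponsive tumors were compared with PBS tumors to see the members in tumors that grew despite the antibody. Here 8 members were higher on average and the CD8 genes lower, Cd8a at -0.61 ± 0.54 and Cd8b1 at -0.10 ± 0.38 on the log2(FPKM + 1) scale. The median over members was 0.26, against -0.056 over 12663 loci, of which 44.4% were higher. No member had an unadjusted p under 0.05 in limma (1.57% of loci on the higher side), none was above PBS without overlap (3.23%), and none passed adjustment (lowest adjusted p = 0.700, 0.0395% of loci). On the higher side, Cd247 at 0.86 ± 0.89, Cd4 at 0.67 ± 0.55 and Cd3g at 0.53 ± 0.47 were close to 1 SE. PBS 1 set the sign of this comparison, since the members' median was -0.17 without it and Cd3d, Cd3e, Cd247, Lck and Zap70 were then lower in nonresponsive tumors. The loci called at p under 0.05 were 199 higher and 210 lower, and 243 and 143 when scaled to the named sum.

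The spread within groups was itself uneven. The mean over members of log2(FPKM + 1) was 3.31 ± 0.898 (SD, n = 3) in PBS, 3.56 ± 0.0627 in nonresponsive and 4.06 ± 0.260 in responsive tumors. Across the 9 tumors, the 45 pairs of members had Pearson correlations of log2(FPKM + 1) between 0.188 (Cd4 with Cd8a) and 0.979 (Cd3d with Lck), with a median of 0.861. Among the 8 members other than the CD8 genes, all 28 pairs lay between 0.793 and 0.979. These are descriptions over 9 tumors, in which all values of a tumor share its scaling and PBS 1 was lowest for 9 members.

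Outside the 10, the loci whose pattern over the 9 tumors was most like the members' mean, of 12060 ranked, were Cd7 (r = 0.991) and Cd2 (0.981), both T cell surface proteins. Then came the locus of the chemokine gene Ccl5 with Heatr9 (0.952), the TCR beta constant locus (0.951), Vcam1 (0.950), Pdcd1 (0.947), Gimap3 (0.946) and Cd5 (0.943). Pdcd1, which encodes PD-1, had FPKM of 1.44, 8.65 and 3.18 with PBS, 4.97, 4.95 and 3.75 in nonresponsive tumors and 8.18, 7.39 and 7.23 in responsive tumors. All 3 responsive tumors were above all nonresponsive ones for Pdcd1, and PBS 2 was the highest of the 9.

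Members were also set against each other within a tumor. Such ratios depend on a library's scaling only through the added FPKM of 1, which bears most on low values. The balance of the coreceptors, as the log2 ratio of Cd8a to Cd4 (each FPKM + 1), was 1.08, 0.80 and -0.02 with PBS, -1.11, -0.65 and -0.21 in nonresponsive tumors and -2.24, 1.44 and 0.17 in responsive tumors. Every nonresponsive tumor was below every PBS tumor, by 1.28 in the mean, and the responsive tumors held both the lowest and the highest ratio of the series. Relative to the sum of Cd3d, Cd3e and Cd3g, Lck was higher in responsive than nonresponsive tumors by 0.19 and Zap70 by 0.24 with no overlap, and Lat was higher in responsive than PBS tumors by 0.26 with no overlap. Each of these 4 differences had an exact two-sided permutation p of 0.1, the smallest possible here, and 0.525 after Benjamini-Hochberg adjustment over the 21 ratio tests, so none passed.

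**Figure D3:**
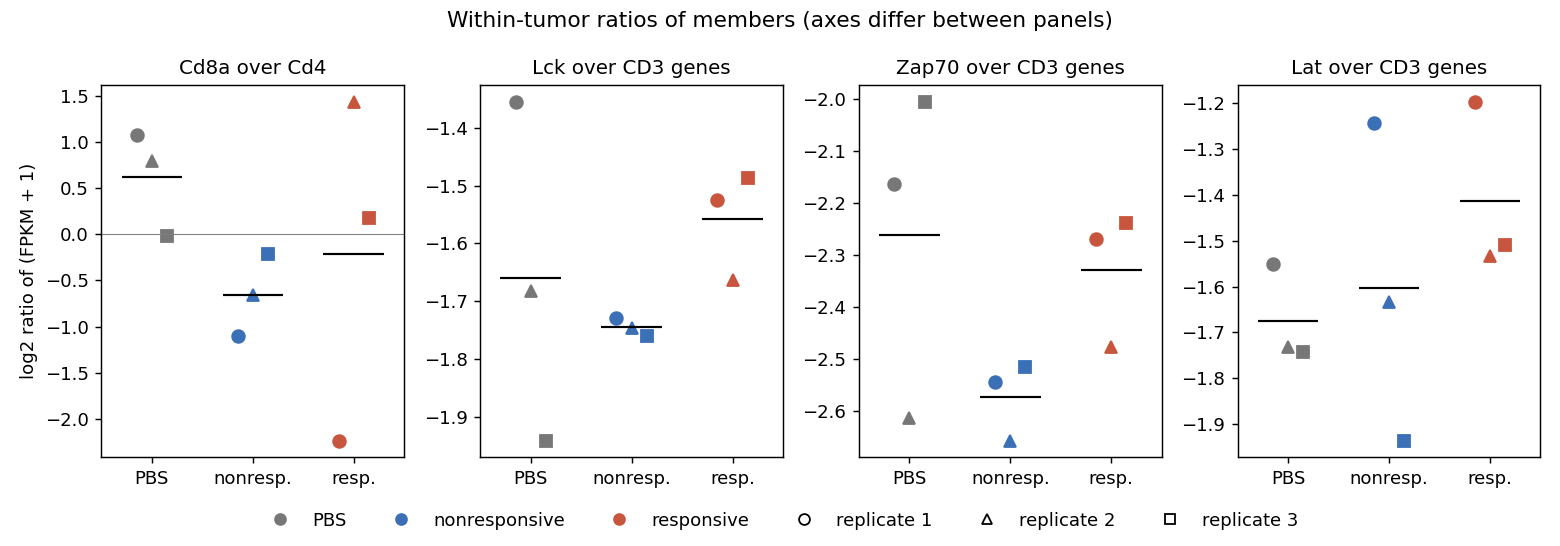
Log2 ratio of (FPKM + 1) within each tumor (vertical axes, which differ between panels) for Cd8a over Cd4 and for Lck, Zap70 and Lat over the sum of the CD3 genes; points are tumors and bars group means of 3. Cd8a over Cd4 runs from -2.24 in responsive 1 to 1.44 in responsive 2.

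Responsive 1 combined the lowest Cd8a of the series with a Cd4 of 15.3 and CD3 genes within the range of the other antibody-treated tumors. The locus of Trdc, the constant segment of the delta chain of gamma-delta T cells, also holds joining segments and a variable segment. It was at an FPKM of 32.2 in responsive 1 and 35.4 in nonresponsive 1, against 1.33 to 8.06 in the other 7. That of Trgc1 of the gamma chain, shared with Trgc3 and Trgc4, was at 26.4 and 27.9 against 1.52 to 11.3. These are the same tumors that had Afp under 1. Tcf7, a transcription factor gene of the Wnt pathway that T cells and other cells use, was at 14.3 and 7.40 in these tumors against 43.6 to 158 elsewhere. Cd8a was higher in responsive tumors by 0.76 with all tumors, by 1.65 without responsive 1 (adjusted p = 0.873 in limma) and by 0.26 without responsive 2. With both tumors of low Afp left out, a choice made after seeing the data, 6 members had an unadjusted p under 0.05 in limma, against 5.15% of 12081 loci on the higher side. In these 2 against 2 tumors 8 members did not overlap, against 16.2% of loci, and the members' median was 0.67.

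Among 31 genes that act with the receptor, such as the kinase Fyn, the phosphatases Ptprc and Ptpn6 and the adaptors Lcp2 and Grap2, 30 were tested for responsive against nonresponsive tumors. Of these, 17 were higher (11 when scaled to the named sum), none had an unadjusted limma p under 0.05 in either direction, and their median difference was 0.018. The most abundant were the locus of Ptprcap with Coro1b, Ptpn6 and Ptprc, which lay between 94.8 and 161, 49.8 and 94.7, and 24.6 and 102 FPKM, and leukocytes other than T cells also express Ptpn6 and Ptprc. Against PBS, 24 of 30 were higher in responsive and 27 of 30 in nonresponsive tumors, again with 0 at p under 0.05.

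Of 18 T cell surface genes, 15 were higher in responsive than nonresponsive tumors, with a median of 0.31. The adhesion receptor gene Cd2 (0.69 ± 0.19), Pdcd1 (0.64 ± 0.19) and Cd5 (0.58 ± 0.23), which encodes a regulator of receptor signaling, had an unadjusted p under 0.05 (adjusted p = 0.835 for each in limma). Scaled to the named sum, 12 were higher and 1 had such a p. Against PBS, 16 were higher in responsive and 14 in nonresponsive tumors, and the locus of Tigit was lower in responsive tumors (-2.09 ± 0.72, adjusted p = 0.247 in limma). Its lowest FPKM were in the same tumors as those of Tcf7, with 9.21 in responsive 1 and 6.16 in nonresponsive 1 against 31.3 to 170.4 elsewhere. The most abundant entries of this list, those of Lag3, Tigit and Cd27, are each shared with other genes. Of 9 T cell transcription factors, 5 were higher in responsive than nonresponsive tumors (4 when scaled to the named sum) with none at p under 0.05. Against PBS, 6 were higher in responsive tumors, among them Tox (0.80 ± 0.30, adjusted p = 0.254 in limma), and 3 of 7 in nonresponsive tumors. Tcf7, Runx3 and Eomes were the most abundant of them, and Runx3 lay between 6.07 and 21.9. The locus of Foxp3, of regulatory T cells, which is shared with Flicr, was listed at 0 in 5 of the 9 tumors.

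The TCR constant segments formed 5 loci, of which 2 were higher in responsive than nonresponsive tumors and 5 higher than PBS in each antibody-treated group. The beta constant locus, whose genes share 1 entry with their joining segments, had FPKM of 34.7, 108 and 53.7 with PBS, 90.4, 72.4 and 65.5 in nonresponsive tumors and 101, 111 and 163 in responsive tumors. It was higher in responsive than nonresponsive tumors by 0.69 ± 0.26 (adjusted p = 0.835 in limma), without overlap. No gene of these lists passed adjustment in any comparison.

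Markers of B cells and hepatocytes were also higher in responsive than nonresponsive tumors, while most macrophage markers were lower. All 6 B cell markers were higher in responsive than nonresponsive tumors, by a median of 1.68. An unadjusted limma p under 0.05 was found for 5 of them, against 4.36% of loci on the higher side. Among the 5 were Ms4a1, Cd79a, Cd79b and Pax5 (by 1.18 to 3.41). The summed FPKM of all 6 was 62.4 to 216 in responsive, 24.6 to 36.7 in nonresponsive and 3.51 to 70.9 in PBS tumors. Cd79a was listed at 0 in nonresponsive 1. All 8 hepatocyte markers, of which Serpina1a, Alb and Apoa1 were the most abundant, were higher in responsive than nonresponsive tumors. Of these, 5 had p under 0.05 (Alb, Cps1, Cyp2e1, Pck1 and Hnf4a, by 1.05 to 1.87), against 4.36% of loci. Scaled to the named sum, 2 did, against 2.27%. In responsive tumors compared with PBS, all 8 had p under 0.05, against 9.12% of loci on the higher side. Their summed FPKM was 8746 to 18913 in responsive, 2707 to 9638 in nonresponsive and 464 to 3980 in PBS tumors, with none at 0. Of 6 macrophage markers, led by C1qa, Cd68 and Csf1r, 1 was higher in responsive than nonresponsive tumors, against 41.8% of loci. None of the 6 had p under 0.05 in this comparison. Their summed FPKM was 594 to 997 in responsive, 664 to 1103 in nonresponsive and 357 to 682 in PBS tumors, none at 0. C1qa was higher in responsive than PBS tumors by 0.63 ± 0.25 and Adgre1 in nonresponsive than PBS tumors by 1.26 ± 0.50. The part of these cells in the members' differences was not tested.

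Cells that could carry members without being conventional T cells were also followed. Of 9 NK cell markers 6 were tested, and 1 was higher in responsive than nonresponsive tumors. The locus of Klrb1c was lower, at -1.61 ± 0.34 (adjusted p = 0.835 in limma), without overlap. Ncr1, another marker of the list, had FPKM of 0.36 to 1.11 in all tumors. The summed FPKM of the NK list, most of it Tyrobp, which macrophages also express, was 315 to 762 in responsive, 402 to 941 in nonresponsive and 189.5 to 464 in PBS tumors. Of 5 markers of type 1 conventional dendritic cells, some of which carry Cd8a in lymphoid organs, 3 were higher in responsive than nonresponsive tumors (1 when scaled to the named sum). Against PBS, the locus of Clec9a was higher in responsive tumors (2.13 ± 0.58) and that of Cadm1 lower (-1.46 ± 0.55). Their summed FPKM was 36.7 to 51.6 in responsive, 29.5 to 72.9 in nonresponsive and 45.7 to 77.9 in PBS tumors. The locus of Clec9a, shared with Clec1b, was listed at 0 in nonresponsive 1. Batf3 lay between 9.34 and 16.5 in all 9 tumors. The locus of Xcr1 lay between 3.68 and 6.19, a value that also holds Fyco1 and cannot be split. Of 8 mast cell and platelet markers 6 were tested and 4 were higher (2 when scaled to the named sum), with Pf4 the most abundant at 56.2 to 604. Of 5 hepatoma and fetal liver markers 4 were tested and none was higher, with H19 lower at -1.95 ± 0.54, while Igf2 was higher in nonresponsive than PBS tumors by 1.37 ± 0.26 (adjusted p = 0.835 and 0.700 in limma). Their part in the members' values was not tested.

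**Figure D4:**
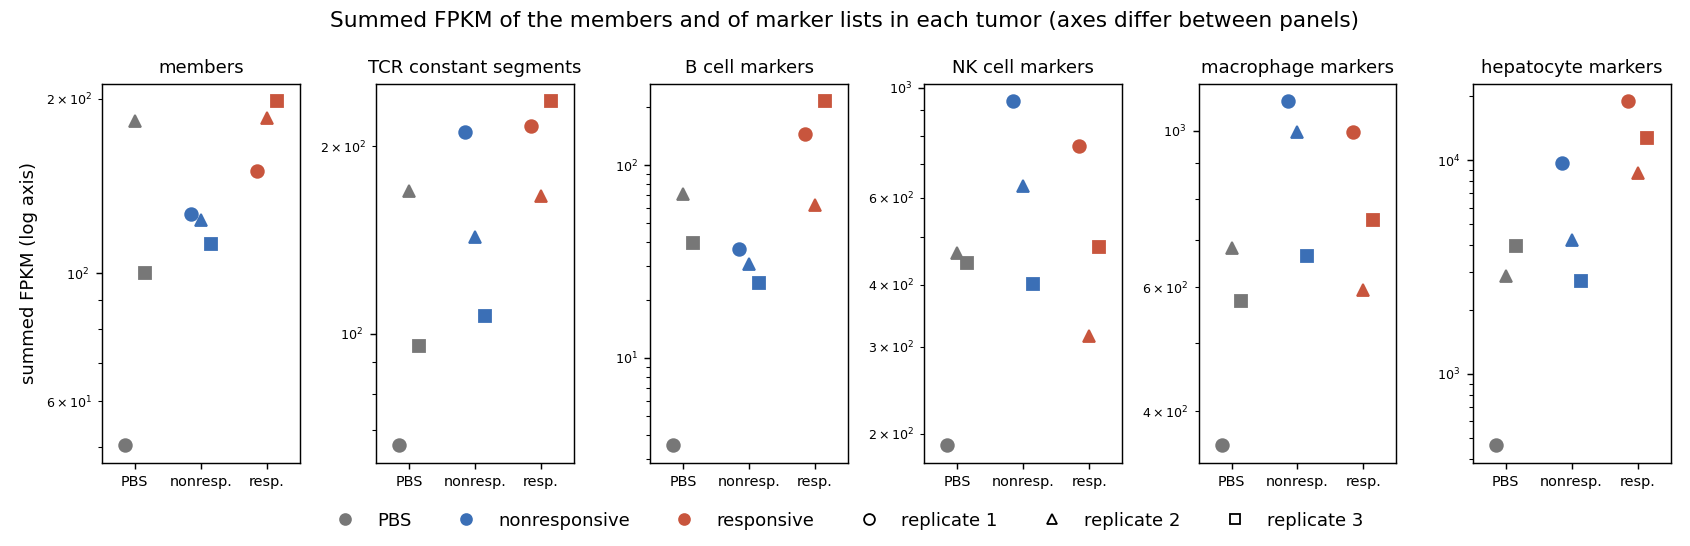
Summed FPKM (vertical log axes, which differ between panels) of the 10 members and of marker lists in each tumor, with points colored by group and shaped by replicate number. The members' sum lies between 150 and 198 in responsive, between 112 and 127 in nonresponsive and between 50.3 and 183 in PBS tumors. B cell sums in responsive tumors are above all nonresponsive tumors but overlap with PBS 2, and hepatocyte sums are above all PBS tumors but overlap with nonresponsive 1.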

How the data were processed

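Whole tumors were sequenced as bulk RNA. The deposited tables, 1 per tumor, are Cufflinks output in which the authors give every entry an FPKM, normalized for transcript length and mapped fragments, with its confidence bounds. The submitters' notes name Bowtie2 2.2.4, TopHat2 2.1.1 and mm8, but no deposited start of a member equaled its GRCm38 start while 7 of 10 spans had the GENCODE M21 length. The build of the coordinates was therefore not settled, and positions come from GENCODE M21 and RefSeq (GRCm38). The authors' series table holds group FPKM with Cuffdiff fold changes, p-values and q-values and was not used.

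Genes sharing an entry in any tumor were joined into 1 locus in all tumors (48254 loci, 45659 of 1 gene, with 7 left out for a failed estimate), and entries naming no gene were left out. These held 19.2 to 81.5% of a tumor's summed FPKM. FPKM plus 1 was taken to log2 and fitted by limma 3.58.1 (R 4.3.3, eBayes with trend, two-sided) on the 6 tumors of a comparison. Loci entered where 3 or more of these tumors reached an FPKM of 1, and p-values were adjusted by Benjamini-Hochberg over all of them. Members were also compared by exact permutation, and ratios within tumors by exact permutation alone. Each replicate is 1 mouse.

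The members and gene lists were chosen with earlier results of these data known. All members were named. From each other list, the 3 most abundant genes and those with an unadjusted p under 0.05 (at most 5 per comparison) were named, apart from 1 gene that is not reported here, and the 8 loci most like the members were taken from those reaching an FPKM of 1 in 6 or more tumors. Irf8, on the dendritic cell list, was not matched. Afp, Trdc, Trgc1, Xcr1, Ncr1 and Foxp3 were also named, after their values were seen where the rule does not name them. Alternatives were another pseudocount (0.1), no filter or a filter at 5, upper-quartile scaling, scaling to the summed FPKM of named entries, 1 fit of all 9 tumors, the replicate number as a block, summing per symbol, entries of 1 gene only, and leaving out each tumor. No 2 tumors were duplicates, as at most 0.00733% of loci had identical values in 2 of them. Only the limma step was tried on simulated data, of 3 against 3 tumors with 200 loci changed by 2 on the log2 scale. A p under 0.05 was reached by 91.4% of changed and 5.17% of unchanged loci. The change of 2 was larger than any member's difference in log2(FPKM + 1) with all tumors. Recovery at the members' sizes was not tested. Python 3.11.15, pandas 2.3.3, scipy 1.17.1 and matplotlib 3.10.9 were used.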

Additional observations from a re-analysis of the deposited data

How the results depend on the processing

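No alternative gave any member an adjusted p under 0.05 (lowest adjusted p = 0.281 for responsive against nonresponsive, 0.185 for responsive against PBS and 0.445 for nonresponsive against PBS, each in limma with 1 tumor left out). There were 3 tumors a group, absolute read depth was unknown, and the antibody-treated groups were set by tumor size. The p-values set a difference only against the spread between these mice. The cause of each change given here was not tested.

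For responsive against nonresponsive tumors, 4 members had an unadjusted p under 0.05, against 4.36% of loci on the higher side. Scaled to the named sum (Cd3e at -0.037) they numbered 2, against 2.27%. With all 9 tumors in 1 fit there were 0, against 3.45%, and with entries of 1 gene only 2 of 6, against 4.23%. Leaving out 1 tumor gave 1 to 5 (1 without responsive 3, against 1.74%, and 5 without responsive 1, against 1.56%). Added after seeing the data, leaving out both tumors of low Afp gave 6, against 5.15%. For responsive against PBS the count was 1, against 9.12% of loci on the higher side. It was 0 when scaled to the named sum (7.02% of loci) or with entries of 1 gene only (8.66%). With all 9 tumors in 1 fit it was 4, against 9.15%. Leaving out 1 tumor gave 0 to 5 members. There were 5 without PBS 2, against 1247 of 12426 loci. There were 0 without PBS 3 (7.92%) or without any 1 of the responsive tumors (4.54 to 9.92%). Leaving out 1 tumor, the members' median was 0.364 to 1.25, Cd3e -0.061 to 0.66, Cd8a -0.352 to 1.04 and Cd8b1 -0.024 to 0.719. For nonresponsive against PBS, leaving out 1 tumor gave 0 to 3 members at p under 0.05 (3 without PBS 2, against 1.80% of loci), a median of -0.167 to 0.634, Cd3d -0.150 to 0.584, Cd3e -0.215 to 0.506, Cd247 -0.184 to 1.58, Cd8a -0.932 to 0.018, Cd8b1 -0.353 to 0.261, Lck -0.027 to 0.683 and Zap70 -0.356 to 0.293, with the lower end without PBS 1 and the upper without PBS 2. The log2 ratio of the CD3 genes to Ptprc was higher by 0.61 in responsive than nonresponsive tumors, with overlap (exact permutation p = 0.4). The difference in this log2 ratio, responsive against PBS, was 0.31 (exact permutation p = 0.9) and -0.13 without responsive 2. With a pseudocount of 0.1 that of Cd247 to the CD3 genes was 1.522 and 1.504 in responsive and nonresponsive tumors against PBS, in place of 0.46 and 0.48, with Cd247 at 0 in PBS 1.

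The sample titles link same-numbered tumors by their number alone. Correlations of their deviations from group means ran from -0.53 (PBS 1 with nonresponsive 1) to 0.69 (nonresponsive 1 with responsive 1). Those of differently numbered tumors covered a similar range, from -0.68 (nonresponsive 3 with responsive 1) to 0.65 (nonresponsive 3 with responsive 2). Whether same-numbered tumors shared handling was not tested. With the replicate number as a replicate block, 3 members had p under 0.05 for responsive against nonresponsive, against 5.85% of loci on the higher side. None did for responsive against PBS (5.42% of loci) or for nonresponsive against PBS (0.892%).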

Other observations

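Entries that name no gene overlapped the Cd8a entry in 3 tumors. There were 2 in PBS 2, with a summed FPKM of 2.81, and 1 each in nonresponsive 1 (0.592) and nonresponsive 3 (0.706), and none overlapped another member. They were left out of the Cd8a values, which were 24.4, 4.70 and 6.64 in those tumors.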
